A study of Mus musculus with 2 samples.

Results

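The 9 genes described here encode the first signalling steps below the T cell receptor: Cd247, Lck, Fyn, Zap70, Lat, Lcp2, Themis, Cd5 and Cd6. They were taken by symbol from the 32285 genes of the files, and each symbol matched 1 gene. They were followed in mouse spleen cells after skin grafting, by droplet sequencing of transcript 5′ ends with unique molecular identifiers (UMIs), in a series whose title concerns the Th17 pathway and antibodies to HLA. In the ALLO group, wild-type C57BL/6 recipients received tail skin of C57BL/6-Tg(HLAA2.1)1Enge/J donors, which express a human class I molecule. In the SYN group, the skin came from wild-type C57BL/6 donors. In both groups skin was placed on the back at weeks 0 and 5, spleens were taken 4 weeks after the second graft, and the cells were frozen, thawed and passed over a column that removes dead cells. Each group had 1 library, and the labels do not give the age or number of animals behind it. There is thus no replicate check and no test. Each difference is between these 2 libraries, and each interval in parentheses is an exact 95% interval that covers counting error only.

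In T cells the Src-family kinase Lck, held by the CD4 or CD8 co-receptor, phosphorylates the cytoplasmic motifs of the CD3 chains and of the zeta chain encoded by Cd247. The kinase Zap70 docks on these motifs and phosphorylates the membrane adaptor Lat and the cytosolic adaptor SLP-76, encoded by Lcp2, on which enzymes for calcium and Ras signals assemble. Fyn is the other main Src-family kinase of T cells and is used by many other blood cells. Themis is a T-lineage regulator known from thymocyte selection, and Cd5 and Cd6 are related surface receptors of the scavenger receptor cysteine-rich family that tune receptor signals. NK cells use the zeta chain, Zap70 and SLP-76 below their own activating receptors. B cells use Syk in place of Zap70, and the mouse B-1 subset carries CD5.

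The ALLO library held 39476214 UMIs over 11185 barcodes and the SYN library 45435231 UMIs over 17777 barcodes. Barcodes with at least 1000 UMIs were kept, 9926 in ALLO (88.7%) against 11267 in SYN (63.4%), and 264 barcode sequences occurred in both libraries. Cells were placed in gates by UMIs of a few genes. A CD4 T cell had a Cd3d, Cd3e or Cd3g UMI and a Cd4 UMI and no Cd8a, Cd8b1 or Cd79a UMI (574 ALLO and 872 SYN cells). A CD8 T cell had a Cd3 and a Cd8b1 UMI and no Cd4 or Cd79a UMI (559 ALLO and 555 SYN cells). A Foxp3 T cell had a Cd3 and a Foxp3 UMI and no Cd79a UMI (104 ALLO and 115 SYN cells), and a gamma delta T cell a Cd3 UMI and at least 2 Trdc UMIs (59 ALLO and 51 SYN cells). An NK cell had an Ncr1 or Klrb1c UMI and no Cd3 UMI (213 ALLO and 339 SYN cells), and a B cell at least 2 UMIs of Cd79a and Cd79b (7520 ALLO and 8109 SYN cells). All 8 T cell markers were detected in the CD4, CD8, Foxp3 and gamma delta gates of both libraries. Cd3d, Cd3e and Cd3g are among these 8. These gates require a UMI of Cd3d, Cd3e or Cd3g, so the detection of these genes is in part set by the gates. A Cd79a UMI was also found in 28.0% (26.3 to 29.8%) of Cd3-positive cells in ALLO against 37.4% (35.9 to 38.9%) in SYN, and the CD4, CD8 and Foxp3 gates leave such cells out. Levels are UMIs of a gene per 1000000 UMIs of the gate (CPM), and are compared within a gene, since transcript length was not taken into account. In bulk sums of this kind, fewer cells with a transcript and less of it per cell cannot be told apart, so counts per cell are given beside the main results.

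The promoters of these genes differ in base composition. RefSeq windows of 300 bases, from 250 before to 50 after a start site on GRCm38.p6, were found for 8 of the 9 genes, in 12 windows, and none was found for Cd6. The windows of Fyn, Lck, Cd247 and Themis are printed because these genes differ in their levels outside T cells: Fyn was highest in NK cells, Lck and Cd247 were read there at levels whose intervals overlapped those of CD8 T cells, and Themis had 0 UMIs in NK cells with no UMI of another lineage. Capitals mark 4 short motifs, read on both strands: GGAAGT (ETS factors), TGTGGT (RUNX factors), CTTTGA (TCF and LEF factors) and CAGGTG (an E-box).
Fyn promoter, chr10:39369549-39369848, plus strand: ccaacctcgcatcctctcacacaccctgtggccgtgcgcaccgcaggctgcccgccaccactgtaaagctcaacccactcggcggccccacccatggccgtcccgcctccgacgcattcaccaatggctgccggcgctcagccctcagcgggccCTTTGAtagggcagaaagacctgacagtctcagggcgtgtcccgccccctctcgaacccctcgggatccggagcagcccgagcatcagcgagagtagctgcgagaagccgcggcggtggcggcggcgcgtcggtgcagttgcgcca
Lck promoter, chr4:129573592-129573891, minus strand: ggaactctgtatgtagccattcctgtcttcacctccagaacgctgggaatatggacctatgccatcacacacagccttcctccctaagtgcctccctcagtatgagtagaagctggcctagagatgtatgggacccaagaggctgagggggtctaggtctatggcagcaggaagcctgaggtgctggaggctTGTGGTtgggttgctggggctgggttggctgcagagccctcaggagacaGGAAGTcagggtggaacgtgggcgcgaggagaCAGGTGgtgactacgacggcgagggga
Cd247 promoter, chr1:165788431-165788730, plus strand: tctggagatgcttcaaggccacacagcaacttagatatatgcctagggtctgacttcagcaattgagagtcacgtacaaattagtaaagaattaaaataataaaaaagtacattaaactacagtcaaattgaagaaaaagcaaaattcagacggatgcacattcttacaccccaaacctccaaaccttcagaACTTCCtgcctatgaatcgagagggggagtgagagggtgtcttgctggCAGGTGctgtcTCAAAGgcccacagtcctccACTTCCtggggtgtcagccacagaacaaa
Themis promoter, chr10:28668110-28668409, plus strand: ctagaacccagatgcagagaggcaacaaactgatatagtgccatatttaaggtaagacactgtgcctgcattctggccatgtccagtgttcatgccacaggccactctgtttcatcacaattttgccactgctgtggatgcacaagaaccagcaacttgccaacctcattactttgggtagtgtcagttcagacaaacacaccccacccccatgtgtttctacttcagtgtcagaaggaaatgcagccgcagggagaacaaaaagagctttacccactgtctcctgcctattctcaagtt
The Fyn window held 69.0% G and C and 31 CpG dinucleotides, more CpG than 89.4% of 32851 mouse promoter windows, whose medians were 52.7% and 7. The Cd247 window held 43.7% and 3, the Themis window shown 47.3% and 1, and the Lcp2 window 43.3% and 0. The Lck window shown, the upstream one of its pair, held 58.3% and 7. The ETS letters were in 5 of the 12 windows, beside 23.8% of all promoter windows, the RUNX letters in 3 (16.8%), the TCF and LEF letters in 4 (16.0%) and the E-box letters in 6 (20.2%). The pair of Themis windows overlap, the motifs do not overlap each other in the sequences shown, and a match is only a match of letters.

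Cd247, the zeta chain gene (chr1:165788681-165877277, plus strand, mm10), was highest in CD4 T cells. For levels across cell types, cells in more than 1 gate were left out and Foxp3-positive cells were taken out of the CD4 gate. Cd247 then stood at 344 CPM (321 to 369) in ALLO against 341 (321 to 361) in SYN in CD4 T cells without Foxp3. In CD8 T cells it was 195 (179 to 212) in ALLO against 199.7 (183 to 217) in SYN, and in NK cells 193 (155 to 236) in ALLO against 189 (158 to 224) in SYN. The CD4 intervals lay above the CD8 intervals in both libraries, while CD8 T and NK cells were not separated by counting error. Foxp3 T cells had 233 (188 to 285) in ALLO against 271 (225 to 324) in SYN, and gamma delta T cells 192 (139 to 259) in ALLO against 311 (229.8 to 411) in SYN. The annotated span of Cd247 overlaps that of Gm16565 on the same strand, so its reads may be split between them.

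Lck (chr4:129548344-129573641, minus strand) was close to level across all T and NK gates. Its highest and lowest levels there in ALLO were 564 (534 to 596) CPM in CD4 T cells without Foxp3 and 446 (384 to 516) in Foxp3 T cells. The intervals of these gates lay apart, while the SYN gates all lay between 519 and 564. NK cells held Lck at 507 (446 to 575) in ALLO against 519 (467 to 575) in SYN. Zap70 (chr1:36761798-36782818, plus strand), the kinase that Lck activates, was similarly flat. It was highest in Foxp3 T cells, at 169 (132 to 214) in ALLO against 169 (133 to 212) in SYN, and stood at 122 (93.0 to 158) in ALLO against 129 (104 to 159) in SYN in NK cells. Neighbours in the Zap70 order overlapped in their intervals from Foxp3 T to NK and gamma delta T cells, except in ALLO between CD4 T cells without Foxp3, at 166 (149.8 to 183), and CD8 T cells, at 129 (116 to 143).

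Fyn (chr10:39368855-39565381, plus strand) was highest in NK cells. There it stood at 447 CPM (389 to 511) in ALLO against 466 (417 to 519) in SYN, above every T gate of the same library with intervals that did not overlap. CD4 T cells without Foxp3 held 248 (228 to 269) in ALLO against 204 (189 to 220.1) in SYN, and CD8 T cells 209 (192 to 226) in ALLO against 185 (169 to 203) in SYN. The place of Foxp3 T cells in the order was not the same in the libraries: they came next after NK cells in ALLO, at 307 (255 to 365), and last of the T gates in SYN, at 158 (123 to 199.6). Counting error did not separate them from CD4 T cells without Foxp3 in ALLO or from CD8 T cells in SYN.

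The adaptors differed from each other in NK cells. Lat (chr7:126363824-126369570, minus strand) was 693 CPM (659 to 727) in ALLO against 732 (703 to 762) in SYN in CD4 T cells without Foxp3, 444 (419 to 469) in ALLO against 483 (457 to 510.2) in SYN in CD8 T cells and 124 (94.8 to 159.9) in ALLO against 101 (78.8 to 127) in SYN in NK cells. Each of these levels lay below the one before it, with intervals apart in both libraries. Lcp2 (chr11:34046920-34092295, plus strand), in contrast, was 169.7 (135 to 211) in ALLO against 161 (132 to 193) in SYN in NK cells and 129 (116 to 143) in ALLO against 128 (115 to 143) in SYN in CD8 T cells. CD4 T cells without Foxp3 had more Lcp2 than CD8 T cells in both libraries, at 223 (204 to 243) in ALLO against 208 (193 to 224) in SYN.

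Themis, Cd5 and Cd6 had almost no UMIs in NK cells. Themis (chr10:28668360-28883818, plus strand) stood at 131 CPM (118 to 145) in ALLO against 123 (109.8 to 137) in SYN in CD8 T cells and 122 (109 to 137) in ALLO against 114 (103 to 126) in SYN in CD4 T cells without Foxp3. In Foxp3 T cells it was 27.0 (13.5 to 48.3) in ALLO against 38.4 (22.3 to 61.4) in SYN, on 11 UMIs in ALLO and 17 in SYN, below both other gates in each library. Cd5 (chr19:10717116-10739002, minus strand) was 397 (338 to 463) in ALLO against 438 (378 to 504) in SYN in Foxp3 T cells, 169 (154 to 186) in ALLO against 169 (153 to 185) in SYN in CD8 T cells and 98.5 (61.7 to 149) in ALLO against 95.1 (53.2 to 157) in SYN in gamma delta T cells. Cd6 (chr19:10789341-10830058, minus strand), on the same strand nearby, was 201 (184 to 220.4) in ALLO against 196 (181 to 211) in SYN in CD4 T cells without Foxp3, 118 (106 to 132) in ALLO against 113 (101 to 126) in SYN in CD8 T cells and 62.7 (34.3 to 105) in ALLO against 69.7 (34.8 to 125) in SYN in gamma delta T cells. For both receptors CD4 and Foxp3 T cells overlapped at the top, and CD4 lay above CD8 T cells with intervals apart. The whole NK gate, before cells in more than 1 gate were left out, holds other cells as well. Its 6 B cell markers summed to 3459.7 CPM in ALLO against 3592 in SYN. The NK levels above are from cells in no other gate, 156 in ALLO and 230 in SYN, for which these markers were not summed. Among NK cells with no UMI of another lineage, 128 in ALLO and 213 in SYN, these markers summed to 125 CPM in ALLO against 131 in SYN, with Cd79a and Cd79b at 0 by the gate. There Themis had 0 UMIs in both libraries and Cd5 and Cd6 had 0 each in ALLO and 2 each in SYN, while Fyn stood at 424 (362 to 494) in ALLO against 469 (418 to 525) in SYN.

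**Figure D1:**
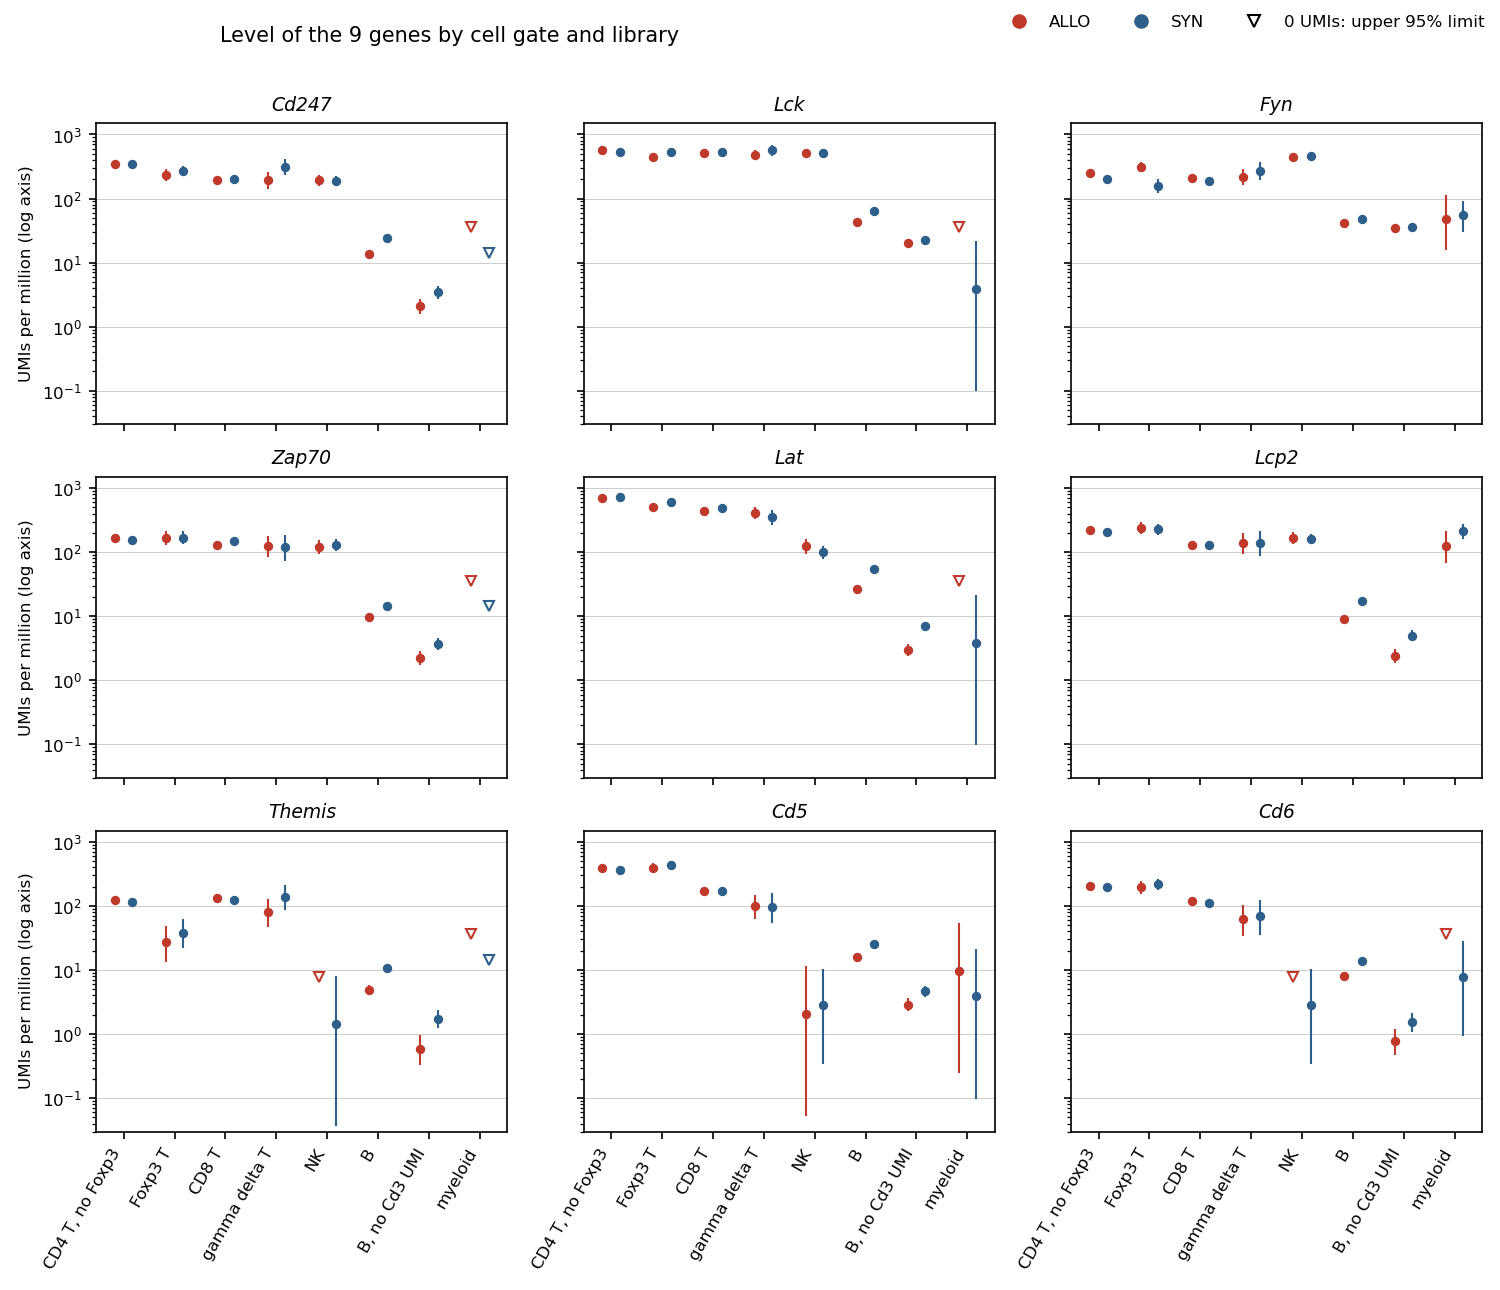
Levels of the 9 genes in CPM (log axis) with exact 95% counting intervals, ALLO red and left of SYN blue, in gates made exclusive, in B cells without a Cd3 UMI and in cells gated on Lyz2 (myeloid); triangles mark upper limits at 0 UMIs. Lck and Zap70 are near level from CD4 T to NK cells, Lat is at 124 in ALLO and 101 in SYN NK cells, Fyn is highest there, and Themis, Cd5 and Cd6 are near 0.

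In CD4 T cells the set was at a close level in the libraries, with Fyn apart. The 9 genes summed to 2938 CPM (2872 to 3005) in ALLO against 2853 (2798 to 2909) in SYN, which gives a ratio of ALLO over SYN of 1.03 (1.00 to 1.06). Fyn had 657 UMIs in ALLO and 726 in SYN, or 253 (234 to 273) in ALLO against 200.3 (186 to 215) in SYN. Its ratio was 1.26 (1.13 to 1.40), and the intervals of its levels did not overlap. The other kinases had ratios of 1.03 (0.958 to 1.10) for Lck and 1.08 (0.946 to 1.22) for Zap70. The adaptor Lat was slightly lower in ALLO, at 682 (651 to 715) in ALLO against 726 (699 to 754) in SYN, a ratio of 0.940 (0.885 to 0.999). The remaining 5 genes had ratios of 0.988 to 1.09, with intervals that all held 1. A gene was counted as higher or lower in ALLO where the level in one library exceeded that in the other by at least 25%. By that rule 1 of 9 genes was higher, Fyn, and 0 of 9 lower, beside 10.8% of 6398 genes with at least 100 UMIs higher and 7.72% lower. A count of 1 among 9 is close to that background. In CD4 T cells without Foxp3 (529 ALLO and 823 SYN cells) Fyn was 248 (229 to 269) in ALLO against 204 (189 to 219.7) in SYN, and its ratio was 1.22 (1.09 to 1.36). In this gate the 4 memory or effector markers summed to 1259 CPM in ALLO against 477 in SYN, the 4 regulatory T markers to 131 CPM in ALLO against 68.0 in SYN, with Foxp3 at 0 by the gate, the 6 NK markers to 148 CPM in ALLO against 37.7 in SYN and the 3 neutrophil markers to 5.53 CPM in ALLO against 123 in SYN, and their part in the Fyn gap was not tested. Among the set 0 of 9 genes were higher by 25% and 0 of 9 lower, beside 9.85% and 7.67% of 6091 genes.

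Among the T cell gates, Foxp3 T cells, the gate of regulatory T cells, had the Fyn ratio farthest from 1. Fyn had 140 UMIs in 104 ALLO cells and 78 UMIs in 115 SYN cells, or 283 CPM (238 to 334) in ALLO against 161 (127 to 201) in SYN. The intervals lay apart, and the ratio was 1.75 (1.32 to 2.35). After each cell was thinned at random to 1000 UMIs, a Fyn UMI was found in 28.8% (20.4 to 38.6%) of ALLO cells, against 14.8% (8.85 to 22.6%) of SYN cells. Without thinning the shares were 65.4% in ALLO against 47.0% in SYN. The thinned shares differ in the same direction as the levels, but their intervals overlap. In B cells without a Cd3 UMI, where Fyn is also read, the thinned share was 3.42% (3.01 to 3.88%) in ALLO against 3.71% (3.27 to 4.18%) in SYN. Median depths before thinning were 3494.5 UMIs in ALLO against 3694 in SYN for Foxp3 T cells, and 3177 against 3002 for those B cells. Cells with at least 3 Fyn UMIs made up 16.3% (9.82 to 24.9%) of Foxp3 T cells in ALLO and 4.35% (1.43 to 9.85%) in SYN. The gap was not that of 1 cell. The richest cell held 5.71% of the Fyn UMIs in ALLO and 5.13% in SYN, and without it in each library the ratio was 1.74.

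The other genes of the set did not separate the libraries in Foxp3 T cells. Their ratios ran from 0.791 (0.392 to 1.58) for Themis, on 17 UMIs in ALLO and 21 in SYN, to 1.17 (0.903 to 1.52) for Lcp2, and every interval held 1. Cd247 was 228 (188 to 274) in ALLO against 269 (224 to 319) in SYN and Lck 461 CPM (403 to 524) in ALLO against 527 (464 to 596) in SYN. The sum of the 9 was 2675 (2533 to 2823) in ALLO against 2668 (2524 to 2817) in SYN. By the 25% rule 1 of 8 genes with at least 100 UMIs was higher, Fyn, and 0 of 8 lower, beside 15.1% and 14.7% of 1402 genes. Fyn also passed a 1.5-fold mark, beside 5.14% of genes, and 0 of 8 were 1.5-fold lower, beside 3.78%. The gate was not the same mix in the libraries. The 4 regulatory T markers summed to 1695 CPM in ALLO against 1711 in SYN. Foxp3 is among these 4 and is required by the gate, so that sum is in part set by it. The 4 memory or effector T markers summed to 661 CPM in ALLO against 1641 in SYN. The 2 CD8 T markers summed to 20.2 CPM in ALLO against 72.3 in SYN. The 6 NK markers summed to 10.1 CPM in ALLO against 62.0 in SYN, with Ncr1 and Klra8 at 0 in both. In Foxp3 cells with Cd4 and no Cd8 UMI, a gate chosen after seeing the data, the Fyn ratio was 2.01 (1.32 to 3.14). The part of the memory or effector markers in the gap was not tested.

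**Figure D2:**
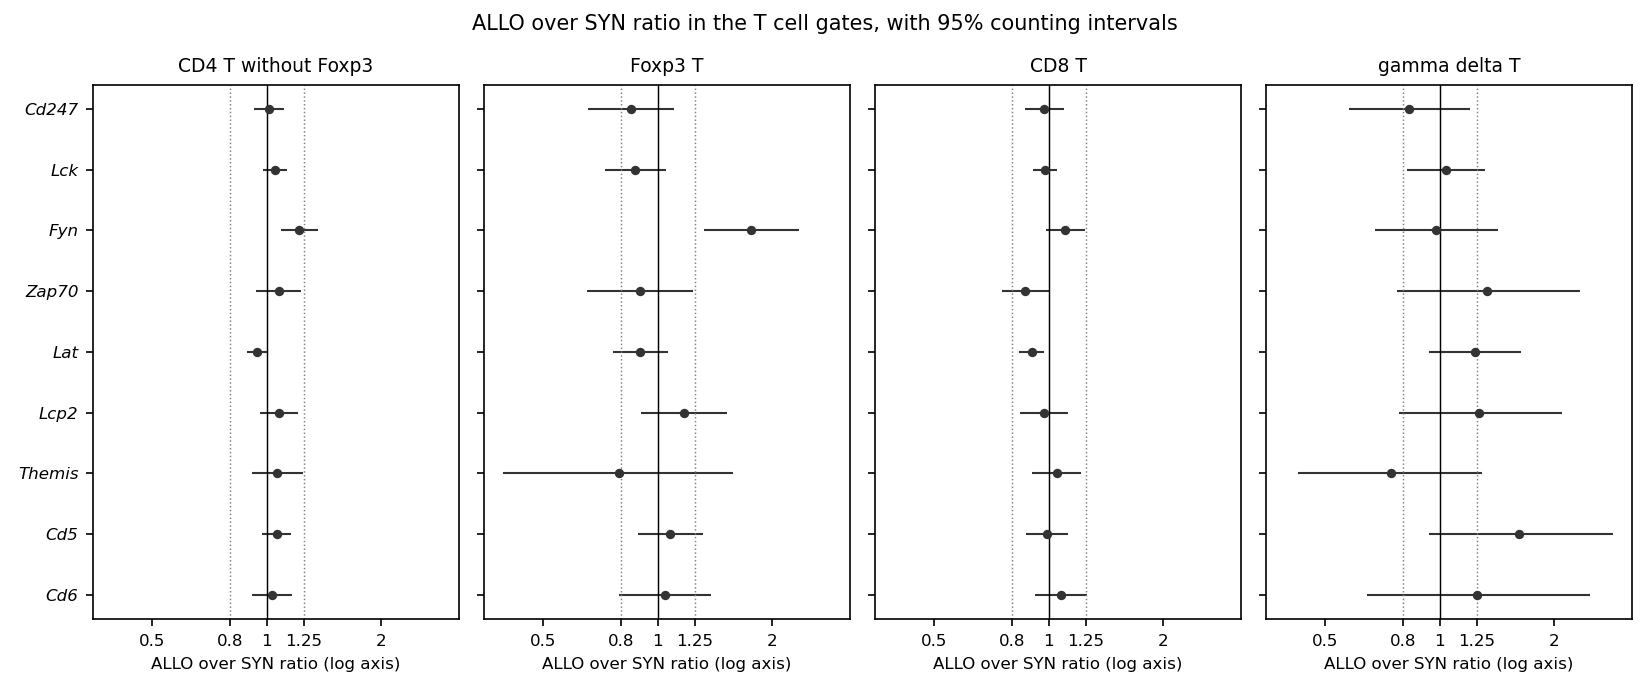
ALLO over SYN ratios (log axis) with exact 95% counting intervals for the 9 genes in 4 T cell gates; dotted lines mark a 25% excess in either library. Fyn lies right of 1 in CD4 T cells without Foxp3 (1.22) and in Foxp3 T cells (1.75), and most other intervals cross 1.

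The Fyn ratio of CD4 T cells was farther from 1 in cells with memory or effector transcripts than in cells without them. The CD4 gate without Foxp3 was split, in a way chosen after seeing the data, into cells with at least 1 UMI of Ccl5, Cxcr3, S100a4, Gzma, Pdcd1 or Itgb1 (208 ALLO and 249 SYN cells), called memory-type, and cells with none (321 ALLO and 574 SYN cells), called marker-free. In memory-type cells Fyn was 328 CPM (293 to 366) in ALLO against 235 (206 to 266) in SYN, a ratio of 1.40 (1.18 to 1.66). In marker-free cells it was 194 (172 to 219) in ALLO against 190.1 (173 to 209) in SYN, a ratio of 1.02 (0.875 to 1.19). The intervals of these ratios overlapped, and their difference was not tested. Memory-type cells made up a larger share of the gate in ALLO, 208 of 529 cells against 249 of 823 in SYN. Cells with at least 3 Fyn UMIs were 18.8% (13.7 to 24.7%) of memory-type cells in ALLO and 9.24% (5.95 to 13.5%) in SYN. Cd247 differed in opposite directions in the subsets. In memory-type cells it was 458 CPM (416 to 503) in ALLO against 356 (321 to 394) in SYN, a ratio of 1.29 (1.12 to 1.48), and in marker-free cells 268 (242 to 297) in ALLO against 332 (309 to 356) in SYN, a ratio of 0.808 (0.713 to 0.915). The intervals of the levels did not overlap in either subset, while in the undivided gate the ratio was 1.02 (0.928 to 1.11). Lat was lower in ALLO among memory-type cells, at 731 (677 to 787) in ALLO against 832 (778 to 889) in SYN, a ratio of 0.878 (0.793 to 0.971). By the 25% rule 2 of 9 genes were higher in memory-type cells, Cd247 and Fyn, and 0 of 9 lower, beside 14.2% and 9.32% of 3047 genes. In marker-free cells 0 of 9 were higher and 0 of 9 lower, beside 6.51% and 10.7% of 4439 genes.

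The memory-type CD4 cells were not alike in the libraries. The 4 memory or effector markers, all of them among the genes of the split, summed to 3113 CPM in ALLO against 1541 in SYN. The 6 NK markers summed to 324 CPM in ALLO against 70.3 in SYN, with Ncr1 at 0 in SYN. Gzma is both an NK marker and a gene of the split, so the NK sums of the subsets differ in part by the split. The 3 neutrophil markers summed to 5.26 CPM in ALLO against 392.4 in SYN, with Retnlg at 0 in ALLO. The memory or effector and NK markers stood higher in ALLO, as Fyn and Cd247 did, and the neutrophil markers stood lower. The part of these markers in the Fyn and Cd247 gaps was not tested. In marker-free cells the 4 erythroid markers summed to 84.2 CPM in ALLO against 1.71 in SYN. The NK markers there summed to 29.3 CPM in ALLO against 23.0 in SYN. Of these, Gzma was at 0 by the split, and Ncr1 and Klrb1c were at 0 in both libraries.

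**Figure D3:**
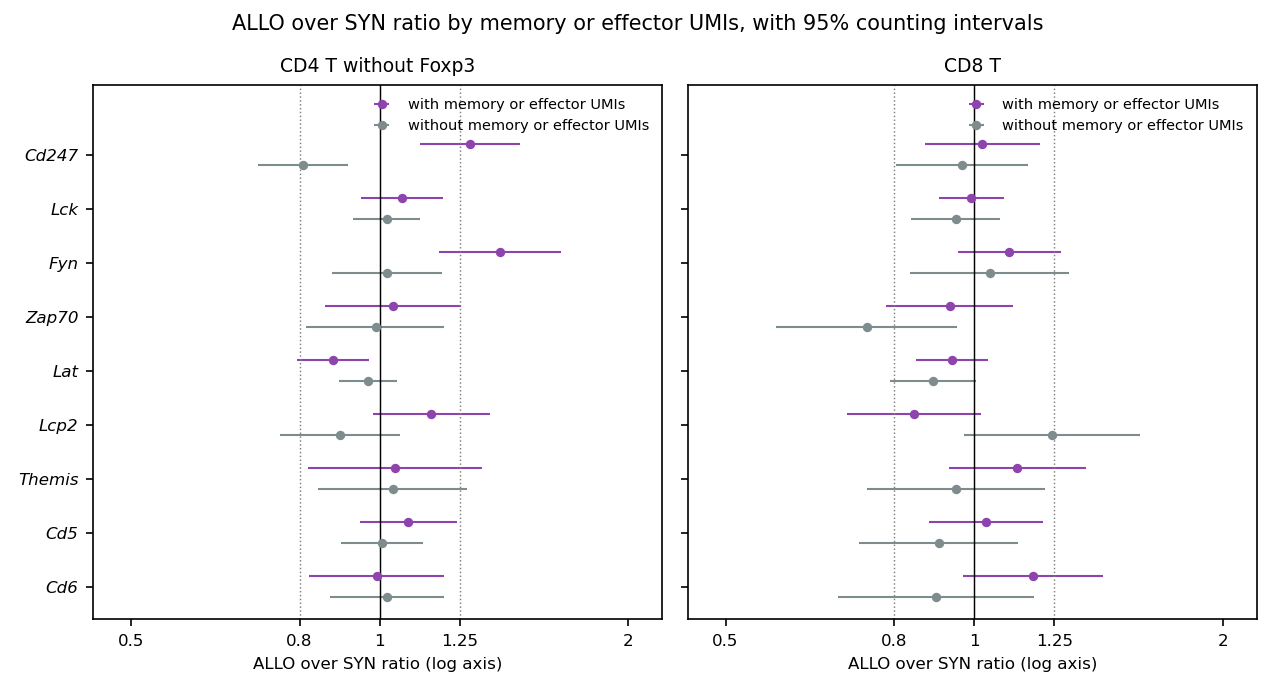
ALLO over SYN ratios (log axis) with exact 95% counting intervals in memory-type cells, with memory or effector UMIs (purple), and marker-free cells, without them (grey), of the CD4 T gate without Foxp3 and of the CD8 T gate; dotted lines mark a 25% excess in either library. In CD4 T cells Cd247 lies at 1.29 in memory-type and 0.808 in marker-free cells, and Fyn at 1.40 and 1.02.

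CD8 T cells had smaller gaps, with Lat and Zap70 on the low side of 1. Lat was 449 CPM (425 to 474) in ALLO against 498 (472 to 524) in SYN, a ratio of 0.903 (0.836 to 0.974). Zap70 was 129 (116 to 143) in ALLO against 149 (135 to 164) in SYN, a ratio of 0.868 (0.753 to 1.00), and Fyn 207 (190.3 to 224) in ALLO against 187 (171 to 204) in SYN, a ratio of 1.11 (0.981 to 1.246). The other 6 genes lay between 0.971 and 1.08, and the sum of the 9 was 2051 (1999 to 2104) in ALLO against 2108 (2054 to 2162) in SYN. By the 25% rule 0 of 9 were higher and 0 of 9 lower, beside 4.68% and 12.2% of 5727 genes. The median log2 ratio was −0.03 over the 9 genes and −0.07 over all of these genes. With the libraries scaled to a median log2 ratio of 0 the Lat ratio was 0.947 (0.877 to 1.02), and with cells thinned to 1000 UMIs 1.02 (0.861 to 1.20), and both intervals held 1. In marker-free CD8 T cells (210 ALLO and 256 SYN cells) Zap70 was 113 (92.7 to 137) in ALLO against 153 (131 to 178) in SYN, a ratio of 0.743 (0.576 to 0.954). The 6 B cell markers summed to 141 CPM in ALLO against 75.9 in SYN in this subset and the 4 erythroid markers to 0 CPM in ALLO against 488 in SYN. By the 25% rule 1 of 9 genes was lower there, Zap70, beside 15.6% of 2512 genes, and 0 of 9 were higher, beside 5.69%. In memory-type CD8 T cells all 9 intervals held 1, with 0 of 9 higher and 0 of 9 lower beside 5.68% and 11.8% of 4244 genes. In the whole CD8 gate memory or effector markers summed to 3951 CPM in ALLO against 2474 in SYN and NK markers to 428 CPM in ALLO against 209 in SYN. Erythroid markers summed to 0.694 CPM in ALLO against 206 in SYN and neutrophil markers to 4.51 CPM in ALLO against 150 in SYN. Neutrophil markers were lower in ALLO in the CD4 gate too, and in the B gate, at 3.95 CPM in ALLO against 517 in SYN. The part of these markers in the CD8 values was not tested.

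Gamma delta T cells and NK cells gave no gap beyond counting error in any of the genes over the whole gates. In gamma delta T cells the sum was 1926 CPM (1772 to 2089) in ALLO against 1775 (1619 to 1942) in SYN, a ratio of 1.09 (0.959 to 1.23). Cd5 had the ratio farthest from 1, at 133 (94.7 to 181) in ALLO against 82.2 (51.5 to 124) in SYN, or 1.61 (0.936 to 2.85), on 40 UMIs in ALLO and 22 in SYN. Of the 4 genes with at least 100 UMIs there, 0 of 4 were higher by 25% and 0 of 4 lower, beside 9.71% and 15.9% of 690 genes. Cd247, which stood lower in ALLO in the exclusive gate, was 202 CPM (155 to 259.7) in ALLO against 243 (187 to 309.6) in SYN here, a ratio of 0.832 (0.577 to 1.20), and with cells thinned to 1000 UMIs its ratio was 4.32 (1.45 to 17.4), on 20 UMIs in ALLO and 4 in SYN, so its direction was not stable. This gate was not cleared of B cell UMIs, and its 6 B cell markers summed to 487 CPM in ALLO against 2122 in SYN. In the NK gate the sum of the 9 was 1123 (1052 to 1199) in ALLO against 1178 (1116 to 1243) in SYN, a ratio of 0.953 (0.875 to 1.04). Lat was 93.5 (73.7 to 117) in ALLO against 73.8 (58.8 to 91.3) in SYN, a ratio of 1.27 (0.917 to 1.75), and by the 25% rule 1 of 6 genes was higher, Lat, and 0 of 6 lower, beside 5.82% and 14.5% of 3245 genes. With the gate set by Ncr1 alone the Lat ratio was 1.43 (1.02 to 1.998), the 1 alternative of this ratio whose interval lay clear of 1.

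The B gate held low levels of all 9 genes, lower in ALLO for each. Their sum was 192 CPM (187 to 197) in ALLO against 289 (283 to 295) in SYN, a ratio of 0.663 (0.641 to 0.686). The genes ran from Themis, at 5.40 (4.59 to 6.32) in ALLO against 11.1 (9.93 to 12.4) in SYN, a ratio of 0.486 (0.399 to 0.590), to Fyn, at 43.2 (40.9 to 45.7) in ALLO against 50.1 (47.5 to 52.8) in SYN, a ratio of 0.863 (0.799 to 0.932). Of the set 8 of 9 were lower by the 25% rule and 5 of 9 at least 1.5-fold lower, beside 7.54% and 2.74% of 10670 genes, and 0 of 9 were higher, beside 3.6% and 0.9%. The receptor genes moved with them. All 9 receptor and co-receptor genes were lower by the 25% rule, beside 12.6% of 12963 genes with at least 20 UMIs lower and 7.27% higher, and the 8 T cell markers summed to 194 CPM in ALLO against 343 in SYN. A Cd3 UMI was found in 7.18% (6.61 to 7.79%) of B-gate cells in ALLO against 15.9% (15.1 to 16.7%) in SYN.

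With those cells set aside, Fyn and Lck kept more of their level in B cells than the other genes. In 6980 ALLO and 6822 SYN cells of the B gate without a Cd3 UMI, Fyn stood at 34.7 CPM (32.4 to 37.0) in ALLO against 35.5 (33.1 to 38.0) in SYN, a ratio of 0.977 (0.888 to 1.08), and Lck at 20.6 (18.8 to 22.4) in ALLO against 22.8 (20.9 to 24.9) in SYN, a ratio of 0.900 (0.797 to 1.02). As a share of the CD4 T level of the same library, Fyn was at 13.7% in ALLO against 17.7% in SYN and Lck at 3.69% against 4.204%, while the other 7 genes lay between 0.383% and 2.40%. Those 7 had ratios of ALLO over SYN from 0.337 for Themis to 0.621 for Cd5. T cell markers still summed to 6.48 CPM in ALLO against 14.7 in SYN in these cells, with Cd3d, Cd3e and Cd3g at 0 by the gate. Trac, the receptor alpha constant gene, was 1.47 CPM in ALLO against 3.19 in SYN, at a ratio of 0.461 (0.303 to 0.691). The part of T cell RNA in these droplets was not tested gene by gene. Of the 7 genes of the set with at least 100 UMIs, 5 of 7 were lower by the 25% rule, and the same 5 by 1.5-fold, beside 6.72% and 1.94% of 10325 genes, and 0 of 7 were higher, beside 3.41% and 0.969%. Cd5, which B-1 cells carry, was 2.87 (2.25 to 3.60) in ALLO against 4.62 (3.78 to 5.58) in SYN, or 0.712% and 1.24% of the CD4 T level.

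**Figure D4:**
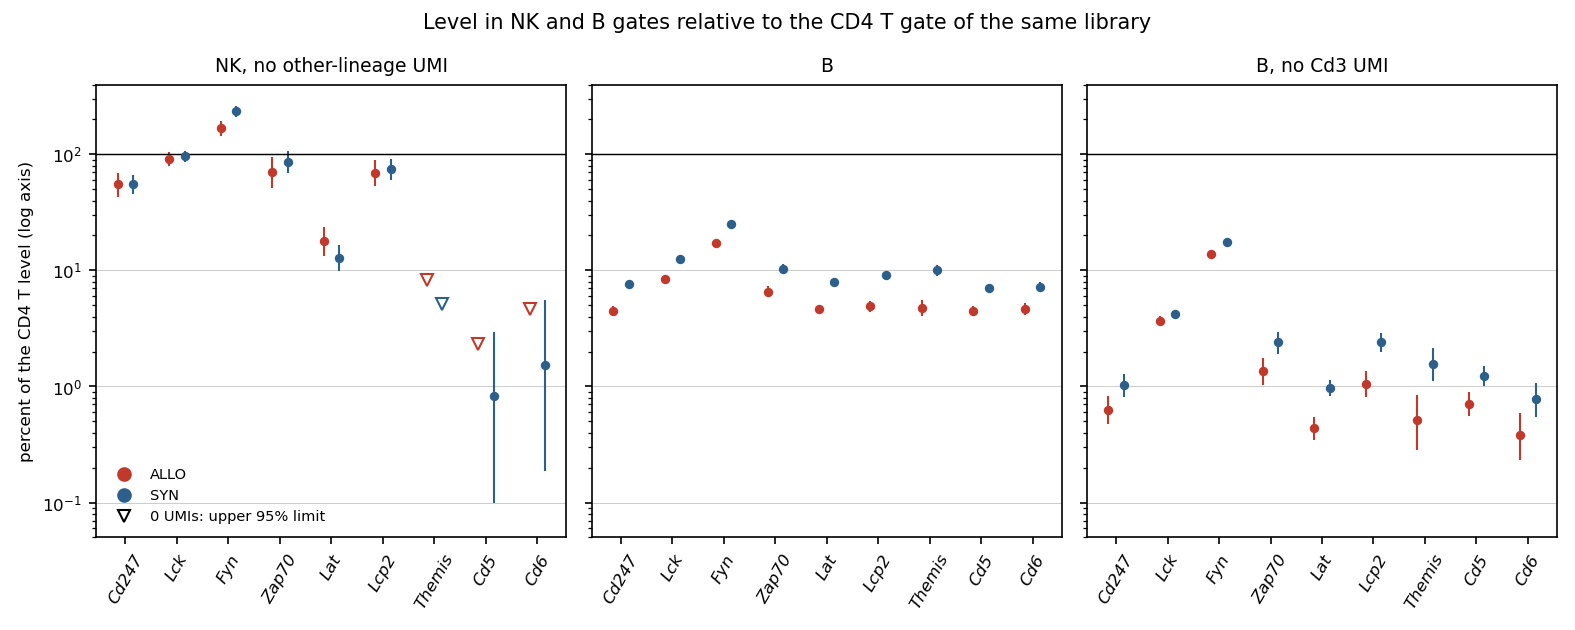
Level of each gene as a percentage of its level in the CD4 T gate of the same library (log axis), ALLO red and left of SYN blue, in NK cells with no UMI of another lineage, in the B gate and in B cells without a Cd3 UMI. In the right panel Fyn is at 13.7% in ALLO and 17.7% in SYN and the genes other than Fyn and Lck are at or under 2.40%.

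A further outside group held at least 2 Lyz2 UMIs and no Cd3, Cd79a or Cd79b UMI (20 ALLO and 69 SYN cells). Neutrophil markers led it, at 200688 CPM in ALLO against 103986 in SYN. Lcp2, which myeloid cells also use, was 127 CPM (67.4 to 217) in ALLO against 214 (161 to 278) in SYN, and Fyn 48.7 (15.8 to 114) in ALLO against 54.4 (29.7 to 91.2) in SYN. Cd247, Zap70 and Themis had 0 UMIs there in both libraries, which allows up to 35.9 CPM in ALLO and 14.3 in SYN.

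Single cells showed more genes of the set in CD4 than in CD8 T cells. After thinning to 1000 UMIs, the average number of the 9 genes seen in a CD4 T cell was 2.32 in ALLO against 2.35 in SYN, in a Foxp3 T cell 2.29 in ALLO against 2.19 in SYN and in a CD8 T cell 1.79 in ALLO against 1.71 in SYN. An NK cell held 1.12 in ALLO against 1.04 in SYN, and a B cell without a Cd3 UMI 0.0650 in ALLO against 0.104 in SYN. Without thinning the CD4 averages were 5.61 in ALLO against 5.36 in SYN. At least 4 of the genes were seen after thinning in 31.7% (25.5 to 38.5%) of memory-type CD4 cells in ALLO and 25.3% (20.02 to 31.2%) in SYN, and in 11.5% (8.25 to 15.5%) of marker-free cells in ALLO and 15.9% (13.0 to 19.1%) in SYN. The intervals of the libraries overlapped in both subsets.

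Other genes of the pathway were read from lists, and a gene was counted with at least 20 UMIs over both libraries. Of 14 genes that receptor signals induce, 6 of 14 were higher by the 25% rule and 0 lower in CD4 T cells without Foxp3, beside 17.3% and 12.8% of 9604 genes at that floor, with a median log2 ratio of 0.28 beside 0.02 over all genes. Tnfrsf4, the costimulatory receptor OX40, was 45.9 CPM in ALLO against 20.01 in SYN, at a ratio of 2.29 (1.68 to 3.16). Nr4a2, an early nuclear receptor gene, was 26.8 CPM in ALLO against 12.4 in SYN, at a ratio of 2.17 (1.44 to 3.28), and the costimulatory receptor Icos was 66.3 CPM in ALLO against 42.7 in SYN, at a ratio of 1.55 (1.23 to 1.96). The part of the memory or effector, regulatory T and NK markers, which also stood higher in ALLO in this gate, was not tested. Within memory-type cells 4 of 14 were higher and 4 lower, close to the background of 23% and 18% of 8011 genes, with a median of −0.09 beside 0.03. Within marker-free cells 7 of 13 were higher and 1 lower, beside 14.5% and 17.9% of 8615 genes, with a median of 0.36 beside −0.03. Most of these higher genes had few UMIs. With at least 100 UMIs, 1 of 6 was higher and 0 lower there, beside 6.51% and 10.7% of 4439 genes. In the undivided gate 4 of 10 were higher and 0 lower at that floor, beside 9.85% and 7.67% of 6091 genes.

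Regulators and partners of the 9 genes were mostly close to level in CD4 T cells without Foxp3. Of 20 kinase regulators and brakes 2 were higher by 25% and 1 lower, with a median of 0.02, and of 24 partners of Lat and SLP-76 1 was higher and 1 lower, with a median of −0.08. Over all genes at the floor of 20 UMIs 17.3% were higher and 12.8% lower, which includes genes of lower counts than most of these. Among genes with at least 100 UMIs, 2 of 19 regulators were higher and 1 lower. Of the partners, 1 of 24 was higher and 1 lower. The background at that floor was 9.85% higher and 7.67% lower of 6091 genes, so the regulators were close to it. Lax1, an adaptor that dampens receptor signals, was 47.6 CPM in ALLO against 29.4 in SYN, at a ratio of 1.62 (1.22 to 2.14). Sit1, another transmembrane adaptor, was 86.3 CPM in ALLO against 112 in SYN, at a ratio of 0.772 (0.648 to 0.918). Unc119, known as an activator of Lck and Fyn, was 44.2 CPM in ALLO against 24.7 in SYN, at a ratio of 1.79 (1.33 to 2.41). Grap2, the adaptor GADS that links Lat to SLP-76, was 145 CPM in ALLO against 193 in SYN, at a ratio of 0.750 (0.656 to 0.856). The Lat ratio of this gate was nearer 1, at 0.945. In memory-type cells 2 of 20 regulators were higher and 3 lower, and 3 of 24 partners were higher and 6 lower, beside the 23% and 18% given for that subset. There Lax1 was 92.5 CPM in ALLO against 47.5 in SYN, at a ratio of 1.95 (1.36 to 2.81), and Unc119 84.1 CPM in ALLO against 51.3 in SYN, at a ratio of 1.64 (1.15 to 2.36). Grap2 was 112 CPM in ALLO against 159.6 in SYN, at a ratio of 0.705 (0.548 to 0.903), and Rasgrp1, a Ras activator, 101 CPM in ALLO against 165 in SYN, at a ratio of 0.610 (0.471 to 0.788).

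In Foxp3 T, CD8 T and B cells the lists were read in the same way. In Foxp3 T cells 1 of 19 regulators was higher by 25% and 7 lower, and 0 of 23 partners were higher and 7 lower, beside 23.7% higher and 25.5% lower of 6046 genes, with medians of −0.16 and −0.15 beside −0.03 over all genes. The count of lower partners is close to that background. Of 12 induced genes 5 were higher and 4 lower, with a median of 0.16. Of the 4 with at least 100 UMIs, 0 were higher and 1 lower, beside 15.1% and 14.7% of 1402 genes. That gene, Icos, stood higher in ALLO in CD4 T cells without Foxp3. Here it was 139 CPM in ALLO against 225 in SYN, at a ratio of 0.619 (0.451 to 0.844). Cbl, a ubiquitin ligase that limits receptor signals, was 101 CPM in ALLO against 182 in SYN, at a ratio of 0.556 (0.385 to 0.795). Dgka, a kinase that removes diacylglycerol, was 299 CPM in ALLO against 422 in SYN, at a ratio of 0.709 (0.570 to 0.881), and Sh2d1a, the adaptor SAP, which binds Fyn, was 236 CPM in ALLO against 165 in SYN, at a ratio of 1.43 (1.07 to 1.92). In CD8 T cells 1 of 20 regulators was higher and 2 lower, beside 10.8% and 18.4% of 9446 genes, with a median of −0.19 beside −0.07. Among genes with at least 100 UMIs, 1 of 19 regulators was higher and 2 lower, beside 4.68% and 12.2% of 5727 genes. Both counts are close to the background at that floor. Of 13 induced genes 5 were higher and 1 lower in CD8 T cells, with a median of 0.07, and with at least 100 UMIs 1 of 6 was higher and 1 lower. Nr4a2 was 33.3 CPM in ALLO against 20.1 in SYN, at a ratio of 1.66 (1.18 to 2.35). Icos was 19.4 CPM in ALLO against 29.4 in SYN, at a ratio of 0.661 (0.462 to 0.940). The phosphatase gene Ptpn2 was 67.7 CPM in ALLO against 46.6 in SYN, at a ratio of 1.45 (1.16 to 1.83), and the ubiquitin ligase gene Cblb 80.5 CPM in ALLO against 103 in SYN, at a ratio of 0.783 (0.655 to 0.934). In B cells without a Cd3 UMI, where the B cell receptor also drives such genes, 8 of 14 induced genes were higher and 0 lower, beside 6.96% and 11.2% of 12453 genes, with a median of 0.35 beside −0.07. Nr4a2 was 18.38 CPM in ALLO against 10.7 in SYN, at a ratio of 1.72 (1.47 to 2.01), and Irf4, a transcription factor gene of activated B cells, 131 CPM in ALLO against 93.8 in SYN, at a ratio of 1.40 (1.32 to 1.47).

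Across the 6 exclusive gates and both libraries the genes fell into like patterns. Over these 12 points, which share their libraries and depths, the log2 levels of Cd247, Lck, Zap70 and Lcp2 had Pearson correlations of 0.97 to 0.99 with each other. The B gate lay far below the other gates for these genes. In SYN, Lck was 63.2 CPM in B cells against 519 to 564 in the other gates, and Cd247 24.3 against 189 to 341. Correlations without the B gate were not computed. Among the T and NK gates Lck was near level, while Cd247 was higher in CD4 than in CD8 T or NK cells. Cd5 had 0.988 with Cd6, and Themis 0.907 with Cd6. Fyn had 0.891 with Lck but −0.01 with Themis, −0.03 with Cd5 and −0.02 with Cd6. Among 8640 genes with at least 500 UMIs, those outside the set most like Zap70 were Skap1 (0.996), Fyb (0.994) and Prkcq (0.992), and those most like Cd5 were Kcnn4 (0.997), Trac (0.990) and Rgs10 (0.986). Lat was most like Trbc2 (0.984), Themis most like Actn1 (0.969) and Fyn most like Spata13 (0.978) and Spn (0.971). These correlations are a description and carry no test.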

How the data were processed

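Spleen cells of 1 ALLO and 1 SYN library were read from the whole-number UMI counts per gene and barcode that the authors deposited, with no normalization. Cell Ranger 6.0.2, FastQC and the mm10 build are named in the submitters' processing notes, and a 10x 5′ v2 kit in the labels' protocols. The sources used here do not give the annotation release or aligner options. Gene spans are those of GENCODE M21 on GRCm38.

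The 9 genes, the gates and the pathway lists were chosen with earlier results of these data known. UMIs were summed per gate and library and divided by the gate's total, with exact Poisson intervals for levels, exact conditional intervals for ratios and Clopper-Pearson intervals for shares, all 95% (Python 3.11.15, scipy 1.17.1, numpy 2.4.6). PCR and capture error lie outside them. With 1 library per group no test was made. Size was described by a 25% excess and a 1.5-fold gap among genes with at least 100 UMIs over both libraries. Named genes are all 9 members, examples from up to 4 genes per list and gate (at least 100 UMIs, past the 25% rule, largest gap first) and from the 3 genes of most like pattern. Scrublet (scanpy 1.11.5) marked 1 ALLO and 0 SYN barcodes, a failed threshold, so doublets were limited by the gates alone. Barcodes under 1000 UMIs, 1259 in ALLO and 6510 in SYN, held the 9 genes at 746 (692 to 804) CPM in ALLO against 857 (831 to 884) in SYN. A planned split by cell state is not reported here. The interval steps were tested on simulated counts.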

Additional observations from a re-analysis of the deposited data

Results flagged for a closer look

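The Cd247 ratio of ALLO over SYN was 1.29 in CD4 T cells without Foxp3 with a memory or effector UMI, on the other side of 1 from the 0.808 of those without one. The Fyn ratio was 1.22 in CD4 T cells without Foxp3 and 1.75 in Foxp3 T cells, on the other side of 1 from the 0.863 of the B gate. With 1 library per group none of these differences between gates was tested. In B cells without a Cd3 UMI the Fyn ratio was 0.977 (0.888 to 1.08), with an interval that holds 1.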

How the results depend on the processing

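Of 802 alternative values of single-gene ratios, 744 lay within the counting error, 57 moved further and 1 turned from an interval below 1 to a value above it: Lat in CD8 T cells, at 1.02 with cells thinned to 1000 UMIs. The Fyn ratio lay above 1 in 13 of 13 alternatives in Foxp3 T cells (1.71 to 2.73). The highest, with thinning, had an interval of 1.52 to 5.12 on 42 UMIs in ALLO and 17 in SYN. It lay above 1 in 12 of 12 alternatives in CD4 T cells (1.19 to 1.33) and 14 of 14 in CD4 T cells without Foxp3 (1.02 to 1.40, the lowest in cells without memory or effector UMIs). Most alternatives reuse nearly the same cells of the same libraries, so these counts are not independent support.

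Ratios of the summed 9 genes depended more on the choices. Of 84 alternative values, 67 lay within the counting error, 14 moved further and 3 turned to the other side of 1. In CD4 T cells thinning gave 0.994 and a denominator without ribosomal protein, mitochondrial and receptor genes 0.989. In CD4 T cells without Foxp3 these gave 0.997 and 0.997, and cells without memory or effector UMIs 0.9698. These are the 3 values that turned, since the main ratio there was 1.04 with an interval above 1. In CD8 T cells thinning gave 1.08 and scaling to a median log2 ratio of 0 gave 1.02. In gamma delta T cells thinning gave 0.948 and a gate without Cd4, Cd8b1 or Cd79a 0.920, and in NK cells thinning gave 1.05 and equal weight per cell 1.06. In the B gate all deposited barcodes gave 0.599, at least 2000 UMIs 0.723, thinning 0.537, equal weight per cell 0.529, scaling 0.693 and no Cd3 UMI 0.810. The causes were not tested. Planned removal of called doublets was not run, since 1 barcode was called. Leaving out barcodes found in both libraries, the 5% of barcodes with the highest doublet scores or the richest cell, the Foxp3 gate with Cd4 and without Cd8, the gamma delta gate without Cd79a or Cd79b, and the split by memory or effector UMIs were chosen after seeing the data. No paired analysis was possible because the groups share only replicate number 1.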
